A study of Mus musculus with 6 samples.

Results

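The table of expression values held 35556 rows, each a region of the array summarized to 1 value per array, and 12146 of them (34.2%) carried no gene symbol. These regions were chosen as the rows that the array's annotation did not pair with a symbol. A further 21789 rows carried exactly 1 symbol and 1621 carried several. A region without a symbol was unnamed here, which is not the same as lying outside any gene. No genome position or probe sequence was paired with these rows, so each is given by its array identifier.

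RNA came from N2A cells, a mouse neuroblastoma line. In 3 samples the cells had been transfected with a construct expressing an shRNA against mouse Pbcas4, a unitary pseudogene, and in 3 samples with a scramble construct. All 6 cultures were plated 24 h before a transient Lipofectamine Plus transfection and harvested 72 h after it, and both constructs were built in a vector with a U6 promoter. Each sample was hybridised to its own Affymetrix Mouse Gene 1.0 ST array, and separate transfections of 1 cell line were the replicates.

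Arrays of this kind measure RNA by hybridising labelled copies of it to short DNA probes fixed to a surface, and the probes of a region are summarized to 1 value. Besides regions of annotated genes, such arrays carry regions of predicted or poorly annotated transcripts and control features, among them features that report the background of hybridisation rather than a transcript. Which of the unnamed rows are control features is not recorded in the sources used here, so no row below is called one. A value thus need not be the level of a transcript, and no detection call was available to separate dim regions from background.

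The designed sequences that separate the conditions were the arms of the 2 hairpins. They are given 5′ to 3′, with the arm in capitals and the loop that both share in lower case:
sh-pbcas4: GATCCCTGTTGTGACATGAttcaagaga
sh-scramble control: AGATACTCGATCCCGCGCttcaagaga
The arm against Pbcas4 had 19 bases, the scramble arm 18 and the loop 9. Neither sequence was matched to any unnamed region here.

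The cell type of the labels was checked against markers. Of 10 neuroblastoma and sympathoadrenal genes, 9 were measured and all 9 exceeded the median of all rows, as did 5 of 5 neuronal genes. Of the macrophage, epithelial and glial lists, 1 of 5, 1 of 4 and 1 of 3 measured genes exceeded it, and of the fibroblast list 3 of 5. The mean over the measured neuroblastoma genes lay between 11.28 and 11.45 (log2) with the shRNA construct and between 11.75 and 12.01 with the scramble, and the mean over the fibroblast genes between 7.53 and 7.63 and between 7.18 and 7.51. The mean over the neuronal genes was between 12.04 and 12.53 with the shRNA construct and between 12.51 and 12.87 with the scramble, which overlapped. The conditions did not overlap for the mean over the neuroblastoma list, nor, by a narrow gap, for the mean over the fibroblast list. Single genes were less uniform. Th and Chgb did not overlap, whereas Dbh, Phox2a, Hand2, Gata3, Chga and Mycn did. For Gata2 the highest shRNA value and the lowest scramble value were both 12.26 as rounded. Of the neuronal genes Stmn2 and Uchl1 did not overlap and were lower with the shRNA construct, whereas Tubb3, Map2 and Snap25 overlapped. Of the fibroblast genes Pdgfra did not overlap, whereas Col1a1, Col1a2, Dcn and Lum did. The part of this in the results on unnamed regions was not tested. In bulk samples a smaller number of cells of a type and less RNA per cell cannot be told apart.

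The identifiers split the unnamed regions into 3 sets. The largest set, 6617 regions (54.5%), had identifiers from 10338001 to 10344622, all below 10344624, the lowest identifier that carried a symbol. These are called the low-identifier regions. A further 5438 (44.8%) were interspersed among the identifiers with a symbol, from 10344705 to 10608600, and 91 (0.749%) had identifiers above the highest one with a symbol, from 10608634 to 10608724. Identifiers were used only to form these sets.

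Unnamed regions were dimmer than rows with 1 symbol. The median of the mean over 6 arrays was 7.02 on the log2 scale over all 12146 unnamed regions and 8.51 over the rows with 1 symbol. It was 6.90 in the low-identifier regions, 7.12 in the interspersed regions and 8.07 in the 91 high-identifier regions. Levels under 6 were found for 29.9% of the unnamed regions and 13.3% of the rows with 1 symbol. Levels of 10 or over were found for 15.1% and 33.4%. As probes differ in how strongly they hybridise, these levels describe the signal of each class and not the relative abundance of transcripts.

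**Figure D1:**
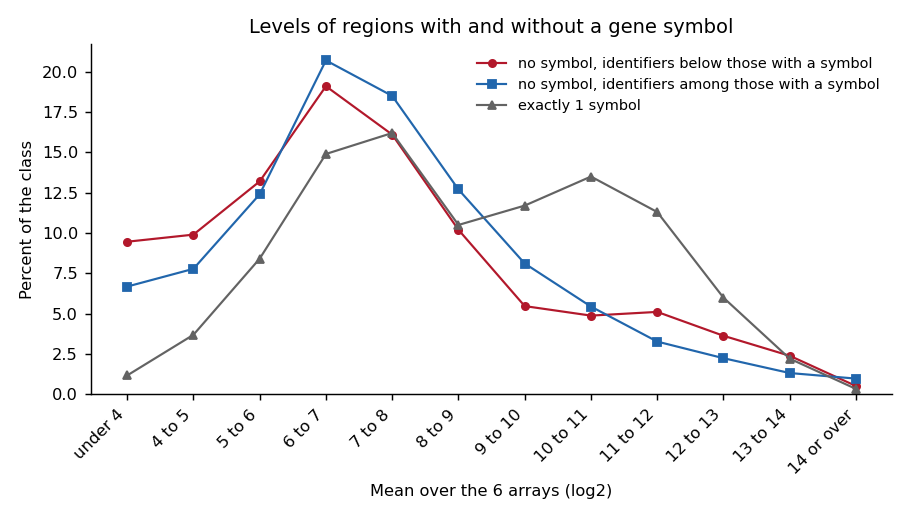
Percent of each class of region (y axis) at each level of the mean over 6 arrays (x axis, log2, bins 1 unit wide). Both sets of unnamed regions peak at 6 to 7, with 19.1% of the low-identifier and 20.7% of the interspersed regions, whereas rows with exactly 1 symbol rise again at 10 to 11, to 13.5%.

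The range of levels was as wide in the unnamed regions as in the rows with 1 symbol, from 2.53 to 14.81 against 2.77 to 14.78. The highest was region 10452415, which read 14.81, 14.79 and 14.79 with the shRNA construct (replicates 1 to 3) and 14.83, 14.83 and 14.82 with the scramble. Its difference between the means was -0.03 ± 0.07 (SE, limma) and the exact permutation test gave p = 0.1, which is the smallest p that 3 arrays against 3 allow. Region 10608690, with a mean of 14.78, had overlapping conditions (exact permutation p = 0.4). Region 10353250 had 14.77, 14.72 and 14.76 in the shRNA arrays and 14.80 in all 3 scramble arrays, and 10411452 had a mean of 14.75. In 10452415, 10353250 and 10411452 the 3 scramble values exceeded the 3 shRNA values, with means 0.05 or less apart. These differences were smaller than the standard errors of limma, which are moderated by the variance of all rows. The differences exceeded the SDs within a condition, which were from 0.0041 to 0.031 in these 3 regions. The lowest were 10342265 and 10341678, with means of 2.53 and 2.65, where the conditions overlapped (exact permutation p = 0.3 and 0.8).

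Replicate arrays differed far more in the low-identifier regions than in the other rows. The median SD within a condition was 0.30 in the low-identifier regions, 0.14 in the interspersed regions, 0.13 in the high-identifier regions and 0.14 in rows with 1 symbol. The excess was widest at low levels and narrowed as the level rose. Between 4 and 5 the median SD was 0.44 in the low-identifier regions, 0.15 in the interspersed regions and 0.13 in rows with 1 symbol, at 8 to 9 it was 0.26, 0.15 and 0.16, and between 12 and 13 it was 0.12 in all 3. The 6 values of a region had a variance above 0.5 in 4.13% of the low-identifier regions (273), 0.202% of the interspersed regions (11) and 0.711% of rows with 1 symbol (155). Correlations between arrays, which are across rows and not over independent replicates, were from 0.974 to 0.987 in the low-identifier regions and from 0.990 to 0.996 in the interspersed regions.

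**Figure D2:**
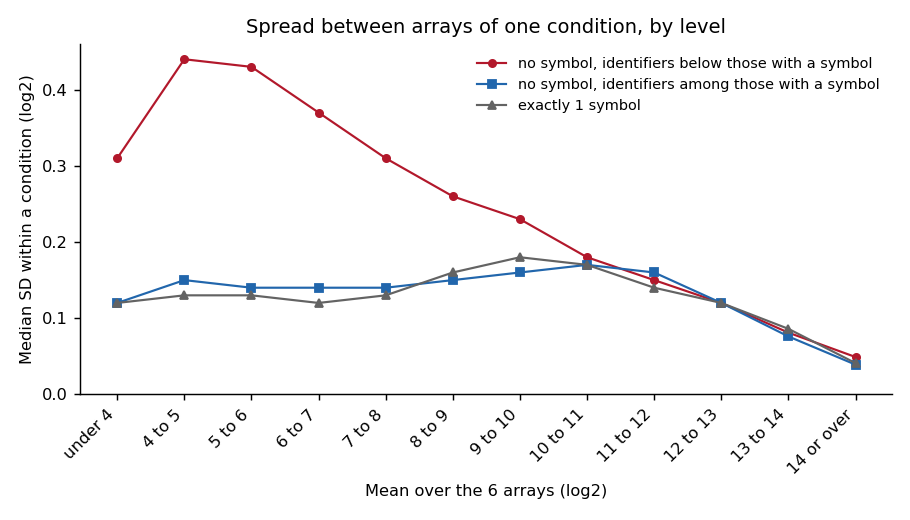
Median SD between the 3 arrays of a condition (y axis, log2; the 2 conditions pooled for each region) by the mean over 6 arrays (x axis, log2). The low-identifier regions lie at 0.43 to 0.44 between 4 and 6, where interspersed regions and rows with 1 symbol lie between 0.13 and 0.15, and the 3 classes meet above 10.

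Scramble replicate 1 stood apart in the low-identifier regions, although the spread was wide without it too. The median SD was 0.24 among the shRNA arrays and 0.29 among the scramble arrays of these regions, and 0.26 within conditions without scramble replicate 1, compared with 0.13 in the interspersed regions without that array. The median of the low-identifier regions was 6.98, 6.83 and 6.95 with the shRNA construct, and 7.26, 6.78 and 6.88 with the scramble. Scramble replicate 1 was thus above every other array and scramble replicate 2 below every other array, with the shRNA arrays between them. Relative to each region's own mean over 6 arrays, the median deviation of scramble replicate 1 was 0.18 in the low-identifier regions and -0.03 in the interspersed regions. It reached 0.35 in the low-identifier regions at 5 to 6 and was 0.01 at 12 to 13. Of the low-identifier regions, 38.3% had their highest value in scramble replicate 1 and 6.57% their lowest, compared with 10.8% and 17.6% of the interspersed regions and 10.8% and 16.1% of rows with 1 symbol. In the interspersed regions it was the shRNA arrays that stood at the extremes, with the highest value in shRNA replicate 1 for 30.0% and the lowest in shRNA replicate 2 for 32.5%. This was not particular to them. The same shares were 27.3% and 21.5% in rows with 1 symbol, and 29.9% and 29.5% in rows with several symbols.

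**Figure D3:**
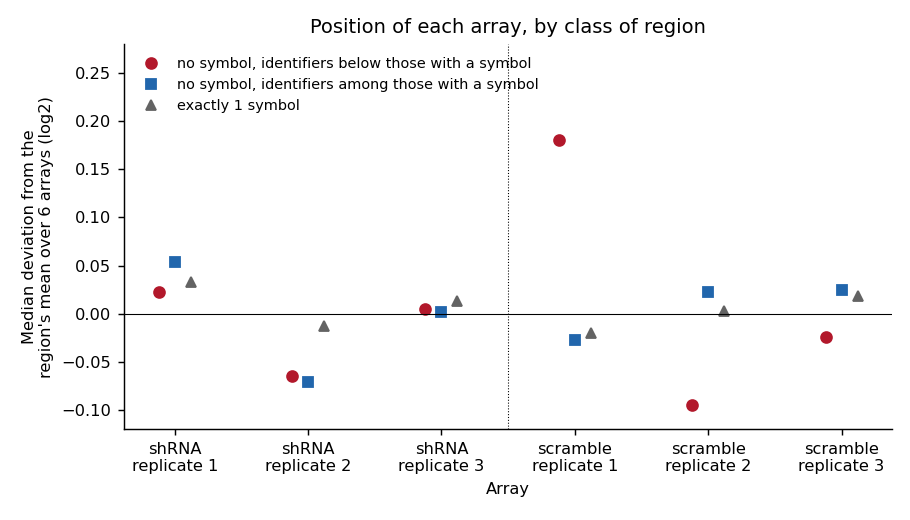
Median deviation of each array from the region's mean over 6 arrays (y axis, log2) for 3 classes of region. Scramble replicate 1 stands at 0.18 in the low-identifier regions and at -0.03 and -0.02 in the interspersed regions and the rows with 1 symbol, and shRNA replicate 2 stands at -0.07 in both sets of unnamed regions.

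Whether the unnamed regions were on balance lower or higher after transfection of the Pbcas4 shRNA was asked next. Over all 12146, 6799 (56.0%) had a mean that was lower with the shRNA construct, and the median difference (shRNA minus scramble) was -0.03, whereas 49.0% of rows with 1 symbol had a lower mean and their median difference was 0.0033. The share was 56.8% in the low-identifier regions (median difference -0.05), 54.9% in the interspersed regions (-0.02) and 59.3% in the high-identifier regions (-0.03). The share depended on how the arrays were scaled. It was 52.4% after quantile normalization and 49.9% with every array centred on the median of all rows, while rows with 1 symbol stood at 45.5% and 41.3% under the same settings.

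The balance also rested on single arrays, and not on the same array in the 2 sets. Without scramble replicate 1, the share of low-identifier regions with a lower shRNA mean was 44.6%, with a median difference of 0.04, while that of the interspersed regions was 58.4% (-0.03). Without shRNA replicate 2, the share of interspersed regions was 43.8%, with a median difference of 0.02, while that of the low-identifier regions was 52.2%. Rows with 1 symbol, at 49.0% with all arrays, crossed 50% as well. They stood at 53.3% without scramble replicate 1, 53.1% without shRNA replicate 1 and 50.6% without shRNA replicate 3. Without shRNA replicate 2 they stood at 43.8%. Over all unnamed regions the share was 50.9% without scramble replicate 1, 48.4% without shRNA replicate 2 and 60.6% without shRNA replicate 1. The share in the unnamed regions was above that in rows with 1 symbol when any array but scramble replicate 1 was left out, and below it when scramble replicate 1 was left out.

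Arrays with the same replicate number were also compared as pairs. In the low-identifier regions the shRNA array was lower for 66.0% of regions in pair 1, 48.2% in pair 2 and 47.7% in pair 3, with median differences of -0.17, 0.02 and 0.02. In the interspersed regions the shares were 35.7%, 66.3% and 55.2%, with median differences of 0.08, -0.10 and -0.02. The pairs went in opposite directions within both sets, and in each of the 3 pairs the median differences of the low-identifier and the interspersed regions had opposite signs.

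By level, the share of unnamed regions with a lower shRNA mean was above 50% in 10 of 12 bins, each 1 log2 unit wide, and above the share in rows with 1 symbol in 10 of 12. Rows with 1 symbol were themselves above 50% in 6 of 12. In the low-identifier regions the share was 60.5% at 6 to 7, 58.6% at 7 to 8, 65.3% at 8 to 9, the largest of the 12 bins, and 59.7% at 9 to 10. It was 59.3% under 4 and 61.8% of 34 regions at 14 or over. Rows with 1 symbol had 47.3%, 50.8%, 54.8% and 48.5% in the bins from 6 to 10. At 12 to 13 the balance was the other way, with 38.3% of 240 low-identifier regions lower against 48.4% of rows with 1 symbol. After quantile normalization the unnamed regions were above 50% in 9 bins and above rows with 1 symbol in 11, and with arrays centred on the median of all rows they were above 50% in 6 and above rows with 1 symbol in 11. Rows with 1 symbol were above 50% in 4 bins after quantile normalization and in 1 with that centring. Each bin's share rests on the same 6 arrays, so the bins are not independent of each other.

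The interspersed regions had their largest shares at the ends of the range. Under 4, 65.0% of 363 had a lower shRNA mean, and at 14 or over 73.6% of 53, with median differences of -0.04 in both. Rows with 1 symbol had 64.1% and 61.6% in these bins, so the ends of the range were on the lower side in those rows too. Rows with several symbols had 38.1% of 21 and 55.6% of 117. Between 5 and 10 the share in the interspersed regions was between 48.4% and 58.1%. At 14 or over it was from 71.7% to 75.5% whichever array was left out, and at 7 to 8 it was from 29.5% (without shRNA replicate 2) to 63.6% (without shRNA replicate 1).

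As the unnamed regions were dimmer, the rows with 1 symbol were also weighted to the same levels. Their share with a lower mean was then 50.9%, compared with 49.0% unweighted and 56.0% in the unnamed regions. Without scramble replicate 1, the share in the low-identifier regions was above that in rows with 1 symbol in 3 of 12 bins, and in the interspersed regions in 9 of 12. The share over all unnamed regions was above it in 5 of 12. At 5 to 6, for instance, 52.4% of the low-identifier regions had a lower mean with all 6 arrays and 38.6% without scramble replicate 1.

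**Figure D4:**
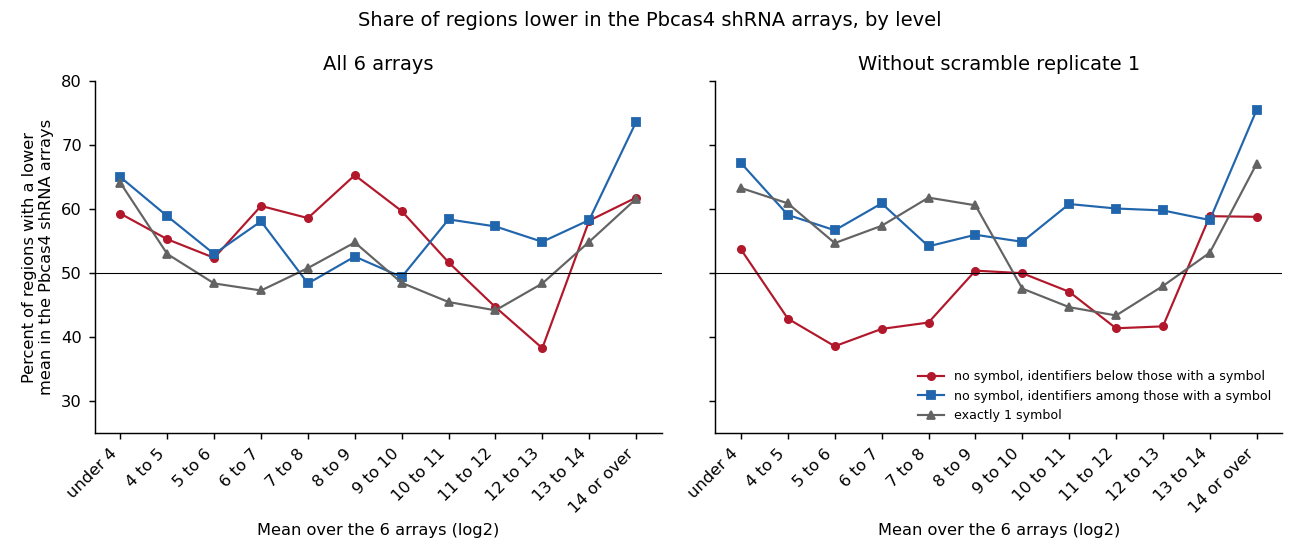
Percent of regions with a lower mean in the Pbcas4 shRNA arrays (y axis) by the mean over all 6 arrays (x axis, log2), with all 6 arrays (left) and without scramble replicate 1 (right); the line marks 50%. Leaving out that array takes the low-identifier regions at 6 to 7 from 60.5% to 41.3% and the interspersed regions from 58.1% to 60.9%.

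Single regions were then tested with limma, fitted to all 35556 rows with Benjamini-Hochberg adjustment over all of them. The criterion for a call was an adjusted p below 0.05 together with means more than 0.5 apart on the log2 scale. Of the unnamed regions 0 were called, as were 0% of all rows, and the lowest adjusted p in limma was 0.297. At an unadjusted p under 0.05, 996 unnamed regions (8.20%) passed in limma, compared with 10.1% of all rows. With the replicate number as a block, 1 region was called (10338153, described with its values later), and it was the 1 call among all rows (0.00281%). Array weights gave shRNA replicate 3 a weight of 5.32 and scramble replicate 1 a weight of 0.353, and 540 unnamed regions (4.45%) were then called, below the 5.57% of all rows.

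At an unadjusted p under 0.05 with the size criterion, 244 unnamed regions were lower (2.01%, against 1.85% of all rows) and 96 were higher (0.790%, against 1.33% of all rows) in the shRNA arrays. The low-identifier regions accounted for 197 of the lower and 72 of the higher ones, and the interspersed regions for 46 and 22, or 42 and 36 with the arrays centred on the median of all rows. With that centring all rows gave 553 lower and 651 higher. Rows with 1 symbol gave 408 lower and 372 higher. The preponderance of lower regions turned without scramble replicate 1, when 268 were lower and 515 higher, and with array weights, when 481 were lower and 617 higher. It turned over all rows as well, from 659 lower and 474 higher to 1068 and 1587 without scramble replicate 1 and 1337 and 1483 with array weights. Without scramble replicate 2 there were 426 lower and 67 higher unnamed regions, and 680 lower and 220 higher over all rows.

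The size of the differences and their rank by test came apart in the low-identifier regions. Of these, 563 (8.51%) differed by more than 0.5, compared with 92 (1.69%) of the interspersed regions and 1165 (5.35%) of rows with 1 symbol. The median level of the 563 was 5.69, against 10.11 in the 1165 rows with 1 symbol. An unadjusted p under 0.05 was reached by 47.8% of the 563, 73.9% of the 92 and 67.0% of the 1165. Under 6, 135 low-identifier regions of 2157 (6.26%) passed both criteria, but 7 of 1460 interspersed regions (0.479%) and 2 of 2892 rows with 1 symbol (0.0692%). At 10 or over these shares were 0.823%, 1.80% and 5.74%.

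Regions whose 3 shRNA values did not overlap with the 3 scramble values were counted as well. There were 843 lower (6.94%, against 7.35% of all rows) and 549 higher (4.52%, against 7.39% of all rows). In the low-identifier regions 426 were lower and 281 higher, and in the interspersed regions 406 and 260. The share lower was near that of all rows in both sets, and the share higher was below it. With the arrays centred on the median of all rows the balance turned, to 619 lower and 778 higher, as all rows went from 2614 lower and 2626 higher to 1671 and 3612. It was 681 and 677 after quantile normalization (all rows, 2325 and 3144) and 600 and 555 centred on rows with 1 symbol (all rows, 2102 and 2754).

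Identical values accounted for part of the balance in the interspersed regions. Of these, 313 (5.76%) shared all 6 values with at least 1 other unnamed region, in 79 groups, of which 53 were pairs. No low-identifier or high-identifier region did so, and 0 groups mixed unnamed regions with rows that carry a symbol. Among rows with 1 symbol, 129 (0.592%) shared their values with another row, and among rows with several symbols 259 (16.0%) did. Rows with the same 6 values hold 1 measurement and not several.

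The 3 largest groups held 106 regions, and all 3 were lower in the shRNA arrays. The 50 regions of the largest group, of which 10345436 is the lowest identifier, had 10.03, 9.90 and 9.75 with the shRNA construct and 10.06, 10.34 and 10.36 with the scramble. The difference was -0.36 ± 0.12 (SE, limma adjusted p = 0.431), and the conditions did not overlap, although shRNA replicate 1 lay close to scramble replicate 1.

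The 33 regions with the values of 10563937 had 6.15, 6.04 and 6.09 with the shRNA construct and 6.23, 6.42 and 6.74 with the scramble (difference -0.37 ± 0.14, limma adjusted p = 0.461). The 23 regions with the values of 10564027 had 6.03, 6.28 and 6.22 with the shRNA construct and 6.39, 6.89 and 6.94 with the scramble (difference -0.56 ± 0.17, limma adjusted p = 0.401). In all 3 groups scramble replicate 1 was the scramble array nearest the shRNA arrays.

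Counted once per set of values, 24 interspersed regions in place of 46 were lower and 22 were higher at an unadjusted p under 0.05 with the size criterion. All rows then gave 637 lower and 474 higher, in place of 659 and 474. Of the interspersed regions that differed by more than 0.5, 55 of 92 (59.8%) were lower, and 33 of 70 (47.1%) when counted once. Over all rows these shares were 56.2% and 55.6%. Non-overlapping interspersed regions came to 293 lower and 260 higher in place of 406 and 260. Non-overlapping rows among all rows came to 2491 and 2615 in place of 2614 and 2626. Over all 12146 unnamed regions, which held 11912 sets of values, the share with a lower mean was 55.5% when counted once, compared with 56.0%. It was 53.8% in the interspersed regions, compared with 54.9%, and 51.3% over all rows, compared with 51.5%.

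The region with the lowest p of all the unnamed regions, and the largest variance (2.57), was 10338153, a low-identifier region. Its values were 3.47, 2.84 and 3.68 with the shRNA construct and 6.36, 5.61 and 6.51 with the scramble. Every scramble value exceeded every shRNA value, by more than the range within either condition, and the shRNA values lay near the bottom of the scale. The difference was -2.83 ± 0.30 on the log2 scale (limma p = 4.68e-05, adjusted p = 0.297), with p = 0.1 in the exact permutation test. The 3 pairs of the same replicate number differed by -2.89, -2.76 and -2.83, and with the replicate number as a block its adjusted p in limma was 0.0174, the only row of 35556 to be called in that fit. Leaving out 1 array at a time gave differences from -3.10 to -2.58 and adjusted p from 0.0614 to 0.839 in limma.

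The other lower regions named by size and lack of overlap were 2 interspersed and 3 low-identifier regions. Region 10475800 (interspersed) had 7.81, 8.52 and 8.05 with the shRNA construct and 8.97, 9.76 and 9.83 with the scramble, a difference of -1.39 ± 0.28 (limma adjusted p = 0.348). Region 10582888 (interspersed) had 9.45, 9.17 and 9.24 with the shRNA construct and 10.18, 10.49 and 10.87 with the scramble, a difference of -1.23 ± 0.18 (limma adjusted p = 0.340). These are among the brighter of the named regions, and in both of them scramble replicate 1 was again the scramble array nearest the shRNA arrays.

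Region 10340469 had 3.26, 3.55 and 3.09 with the shRNA construct and 4.59, 4.32 and 5.02 with the scramble, a difference of -1.35 ± 0.20 (limma adjusted p = 0.340). Region 10343501 had 3.47, 5.59 and 5.43 against 6.34, 6.36 and 5.91, a difference of -1.38 ± 0.55 (limma adjusted p = 0.481). Region 10341974 had 4.21, 5.88 and 4.14 against 5.96, 6.12 and 6.10, a difference of -1.32 ± 0.45 (limma adjusted p = 0.431). In the first of these the spread within each condition was small beside the difference, whereas the size of the other 2 came from low values in 1 or 2 shRNA arrays. Without shRNA replicate 1 the difference of 10343501 was -0.70.

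The 6 regions named for the largest differences in the other direction were all low-identifier regions. Region 10341452 had 5.13, 5.55 and 5.04 with the shRNA construct and 4.44, 3.56 and 3.58 with the scramble, a difference of 1.38 ± 0.27 (limma adjusted p = 0.348). Region 10342995 had 6.20, 6.15 and 6.20 against 5.51, 4.44 and 4.69, a difference of 1.31 ± 0.26 (limma adjusted p = 0.348). Region 10341914 had 5.85, 5.44 and 5.75 against 5.09, 4.04 and 4.23, a difference of 1.22 ± 0.28 (limma adjusted p = 0.363). In each of them scramble replicate 1 was the highest scramble array, as in the low-identifier regions as a class.

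Region 10341004 had the largest of these differences, 1.49 ± 0.44 (limma adjusted p = 0.401), with 3.85, 5.62 and 4.54 with the shRNA construct and 3.06, 2.92 and 3.58 with the scramble. Region 10339005 had 7.62, 7.60 and 8.01 against 7.03, 6.55 and 5.82, a difference of 1.28 ± 0.30 (limma adjusted p = 0.363). Region 10339287 had 6.35, 6.90 and 6.77 against 5.70, 4.53 and 6.17, a difference of 1.21 ± 0.41 (limma adjusted p = 0.431). Without scramble replicate 2 the difference of 10339287 was 0.74. The scramble values were the more scattered in the last 2, and the conditions did not overlap in any of the 3. The exact permutation test gave p = 0.1 for each of the 12 regions named by size, which their choice for lack of overlap fixes in advance.

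The lowest p among the regions with a higher mean belonged to 10350504, an interspersed region with 9.60, 9.39 and 9.54 with the shRNA construct and 8.77, 8.50 and 8.52 with the scramble. Its difference was 0.91 ± 0.11 (adjusted p = 0.300 in limma, exact permutation p = 0.1). Leaving out 1 array at a time gave differences from 0.87 to 1.00. The lowest shRNA value exceeded the highest scramble value by more than the range within either condition.

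A large difference could also come with a wide overlap. Region 10342748, with the next largest variance (2.49), had 6.52, 7.01 and 6.67 with the shRNA construct and 7.04, 4.70 and 3.16 with the scramble. Its difference was 1.76 ± 0.89 (limma adjusted p = 0.572, exact permutation p = 0.4). The shRNA arrays were close together, and scramble replicate 1 exceeded all of them while the other 2 scramble arrays were lower. Without scramble replicate 1 the difference was 2.80, and without scramble replicate 3 it was 0.86.

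**Figure D5:**
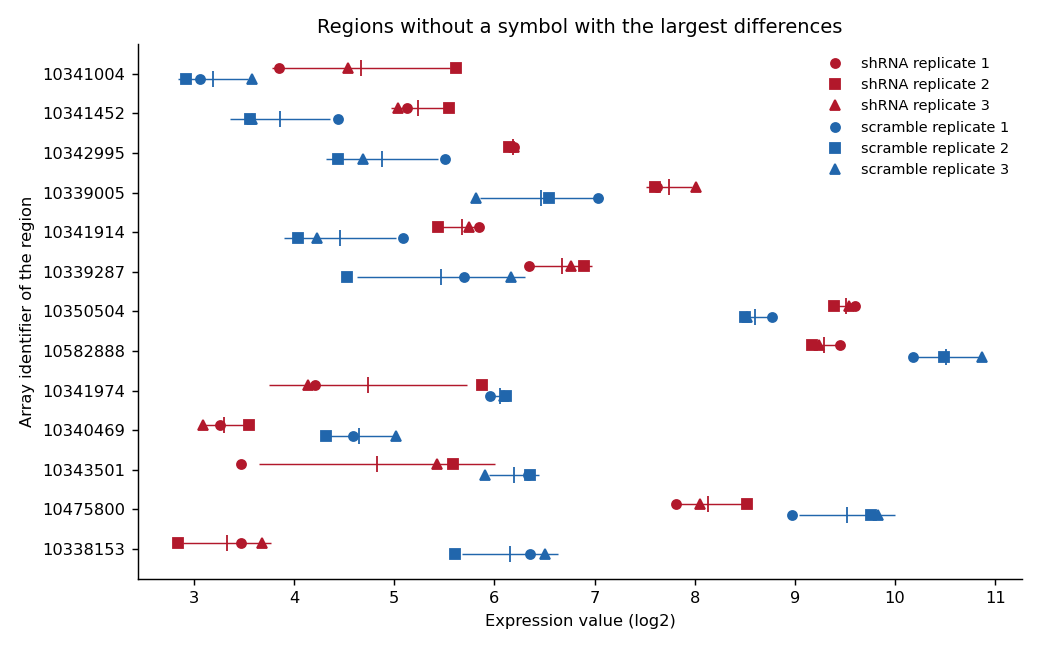
Log2 values (x axis) of 13 unnamed regions (y axis, array identifiers) in the 3 Pbcas4 shRNA arrays (red) and the 3 scramble arrays (blue), with the mean (tick) and SD (line) of each condition. The conditions do not overlap in any of these regions, which were chosen for that, and the widest gap is that of 10338153, with means of 3.33 and 6.16.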

How the data were processed

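RNA of 6 N2A cultures was measured on Affymetrix Mouse Gene 1.0 ST arrays, 3 per condition. The authors deposited log2 values, 1 per region and array, that were already normalized between arrays. The method of background correction, summarization and normalization is not given in the sources used here, and no further normalization was applied. The study's methods name limma. Precision is limited by the number of arrays. The limma p-values set a difference against the spread between transfections, with each region's variance moderated by that of all rows. The exact permutation p compares the difference with those from the other splits of the 6 arrays into 3 and 3.

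A region without a symbol was a row that the platform annotation did not list, and that annotation can be old. Conditions were compared over all 35556 rows by the moderated two-sided test of limma (version 3.58.1, run in R 4.3.3) with 1 term for the construct and Benjamini-Hochberg adjustment, and single regions also by an exact permutation test. Summaries and figures were made in Python with pandas and matplotlib. The fit was tested on simulated data. Regions were named as follows: the 6 with the largest difference in each direction among those at an unadjusted p under 0.05 without overlap, the lowest p in each direction, the 4 highest and 2 lowest levels, the 2 largest variances, and any called. The members, marker lists and rules were chosen with earlier results of these data known. The groups of identical values described are the 3 largest.

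After the mean of each construct was taken off, arrays of the same replicate number correlated across all rows at 0.291, 0.137 and 0.103, all above 0.1, which meets the limit set for pairs, so a fit with the replicate number as a block is given beside the unblocked tests. The pairing comes from these values, since the labels do not say what a number marks. Over the unnamed regions alone the correlations were 0.119, 0.0637 and 0.0322. Alternatives were this replicate block, other scalings, other variance models, array weights, a filter leaving out the dimmest 25% of rows, subsets of regions, and each array left out in turn. Counting identical rows once was chosen after seeing the data.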

Additional observations from a re-analysis of the deposited data

How the results depend on the processing

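No unnamed region was called in limma, with 996 at an unadjusted p under 0.05, except that array weights called 540 (4.45%, against 5.57% of all rows) and the replicate block, which pairs arrays by number, called 1 (the 1 call among all rows). At an unadjusted p under 0.05 with the size criterion, lower and higher regions numbered 481 and 617 with array weights, 125 and 46 with the filter on dim rows, 46 and 22 among the interspersed regions alone, and 643 and 353 with no size criterion. Over all rows the counts were 1337 and 1483 with array weights, 546 and 443 with the filter, and 1837 and 1768 with no size criterion. The replicate block gave 309 and 140 (all rows, 895 and 661), within 1.5 times of 244 and 96, and left the median difference at -0.026. Leaving out 1 array at a time gave 240 to 426 lower and 67 to 515 higher regions, 515 of them without scramble replicate 1. Over all rows it gave 534 to 1068 lower and 216 to 1587 higher. Non-overlapping regions were 541 lower with the filter on dim rows (all rows, 2132) and 406 lower and 260 higher among the interspersed regions. They were 1259 to 1820 lower and 841 to 1800 higher with 1 array left out, since fewer arrays overlap less often. All rows gave 3543 to 6440 lower and 3461 to 6487 higher in these fits.

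The median difference over the unnamed regions changed sign with arrays centred on the median of all rows (0.00063), without shRNA replicate 2 (0.0082) and with array weights (0.0053, with 49.2% of regions lower), and was from -0.051 to 0.0082 with 1 array left out. The share with a lower mean was 52.4% after quantile normalization, 49.9% centred on all rows, 51.1% centred on rows with 1 symbol, 54.9% in the interspersed regions and 48.4% to 60.6% with 1 array left out. The cause of these shifts was not tested. The share in rows with 1 symbol, weighted to the levels of the unnamed regions, was 49.7% over 5 level classes of equal size and 47.1% among differences over 0.5, where the share in the unnamed regions was 64.7%. The differences of the 13 regions named for size or p had the same sign in each alternative run, which their lack of overlap fixes where an array is left out and the balanced design fixes under the block, so that quantile normalization is the 1 alternative where a sign could have turned.

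Depth cannot be given for arrays. Regions under 6 on the log2 scale have no detection call here, and the low-identifier regions vary most at these levels.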
